A study of Rattus norvegicus with 13 samples.

Results

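The genes of the arteriolar wall described here are 7 genes of smooth muscle contraction, Acta2, Tagln, Myh11, Tpm1, Tpm2, Cnn1 and Myl9, and Akr1b7, a gene of renin-producing juxtaglomerular cells. Every probe set of the array whose platform annotation named exactly 1 gene symbol, and that symbol 1 of these 8, was taken. This gave 8 genes of the 10411 with such a probe set, read by 13 of the 15866 probe sets that are not controls: 6 of Tpm1 and 1 of each other gene. A further 3 probe sets that list Acta2 beside another gene were not included.

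Glomeruli, the capillary tufts in which the kidney filters blood, were taken from Lewis-Hsd rats aged 18 weeks on a regular diet and measured on 13 one-colour Affymetrix rat arrays, to compare 2 ways of isolating them. The groups titled LCM 20 (n = 4) and LCM 800 (n = 5) hold glomeruli cut from frozen kidney sections by laser capture microdissection, a method in which chosen pieces of a section are lifted out under the microscope, and their RNA was amplified in 2 rounds. The group titled iron (n = 4) holds glomeruli of kidneys perfused with iron oxide through the aorta while the artery of the opposite kidney was clamped; these glomeruli were then collected by sieve and magnet, and their RNA was not amplified. The source and treatment fields of every array call the kidneys untreated, and no label names a mutation or a transgene. The extract protocol of the iron arrays, however, speaks of both normal and anti-Thy1.1 rats; that antibody injures mesangial cells, and no label says that any of these arrays came from such a rat. Isolation, perfusion and amplification differ together between the LCM groups and iron and cannot be told apart. The labels give the same protocol of about 800 cross-sections for both LCM groups, do not state what the title number 20 stands for, speak of paired kidneys without saying that a replicate number marks a rat, and carry a description of embryos that does not match the other fields.

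Blood enters a glomerulus through the afferent arteriole, whose wall is smooth muscle. Smooth muscle shortens when myosin, switched on through its regulatory light chain, pulls on actin filaments that carry tropomyosin, calponin and transgelin. Near the glomerulus the smooth muscle cells of the afferent arteriole give way to granular juxtaglomerular cells, which make renin, the enzyme that starts the angiotensin cascade; connexins couple these cells to their neighbours, and cyclic AMP drives renin release. Mesangial cells and pericytes, which lie inside the tuft, share part of the contractile programme. The renin gene itself is not analysed here.

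Values are array signals in intensity units, and a change is the difference of group means of log2(signal + 65.29), given with its standard error (SE) from limma; the pseudocount of 65.29 is the 20th percentile of all signals and makes changes of dim probe sets smaller than the ratio of their signals. A probe set counts as higher or lower where the adjusted p is under 0.05 over all 11106 probe sets tested. Changes and tests compare signals between arrays and not between probe sets. Sums over marker lists, shares of a sum and the choice of the brightest probe set of a gene do weigh different probe sets together. Of the 13 member probe sets 7 passed the filter on low values, a mean log2 of 7.62, which is a signal of 131, and 6 did not: those of Tagln and Cnn1 and 4 of Tpm1. Their values are given too, and a test without the filter is named as such.

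The median signal per array lay between 237 and 321. The summed signal of 11 podocyte marker genes, which define the glomerular filter, was 30849.5 to 46805 on LCM 20 arrays, 35952 to 49742 on LCM 800 arrays and 23165 to 50603.5 on iron arrays. Synpo made a large part of the LCM sums, with 14499 to 22944, 15826 to 26117 and 4437 to 10445 in these groups. Against iron 4 of the 11 were higher and 3 lower in LCM 20, beside 27% and 18.5% of all genes. In LCM 800, 4 were higher and 5 lower, beside 32.3% and 19.8%. LCM 800 replicates 1 to 3 correlated with replicates 4 and 5 at Pearson's r of 0.718 to 0.812 over the tested probe sets, less than among themselves (0.893 to 0.930), and iron replicate 3 correlated with the other iron arrays at 0.873 to 0.897, against 0.964 to 0.984 among those. The 3′ minus 5′ log2 signal of control probe sets grows when cDNA is shortened at its 5′ end. For β-actin it was 1.33 to 2.29 on LCM 20 arrays, 1.72 to 4.02 on LCM 800 arrays and 0.528 to 0.571 on iron arrays. The other controls did not separate the groups in the same way. GAPDH gave -0.219 to 3.06 in LCM 20, 0.681 to 2.02 in LCM 800 and 0.357 to 0.663 in iron. Hexokinase gave 0.1 to 0.757 in LCM 20, -0.23 to 0.604 in LCM 800 and 0.622 to 0.922 in iron. The part of such shortening in the changes below was not tested. Both LCM groups are set against the same 4 iron arrays. In bulk samples, fewer cells of a type and less RNA per cell cannot be told apart.

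Against iron, Tpm2 and 1 of the 2 tested Tpm1 probe sets were higher in both LCM groups, Akr1b7 was lower in both, and Acta2 and Myh11, the actin and the heavy chain that define smooth muscle, did not pass the test in either. In LCM 20, 2 of the 7 tested member probe sets were higher (Tpm1 1368724_a_at and Tpm2) and 1 was lower (Akr1b7); of all tested probe sets 26.2% were higher and 19.2% lower. In LCM 800, 3 of 7 were higher, the same 2 and Myl9, and 1 was lower, again Akr1b7; of all tested probe sets 31.8% were higher and 20.1% lower. With so many probe sets called in each comparison, these counts are close to the background. The median change of the 7 was 0.38 in LCM 20, beside 0.17 for all tested probe sets, and 0.46 in LCM 800, beside 0.22. Between LCM 20 and LCM 800, limma called 0 of the 7 members (1 had an unadjusted p under 0.05, Tpm1 1368724_a_at), where 0.072% of all tested probe sets were higher and 0.081% lower in LCM 20.

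**Figure D1:**
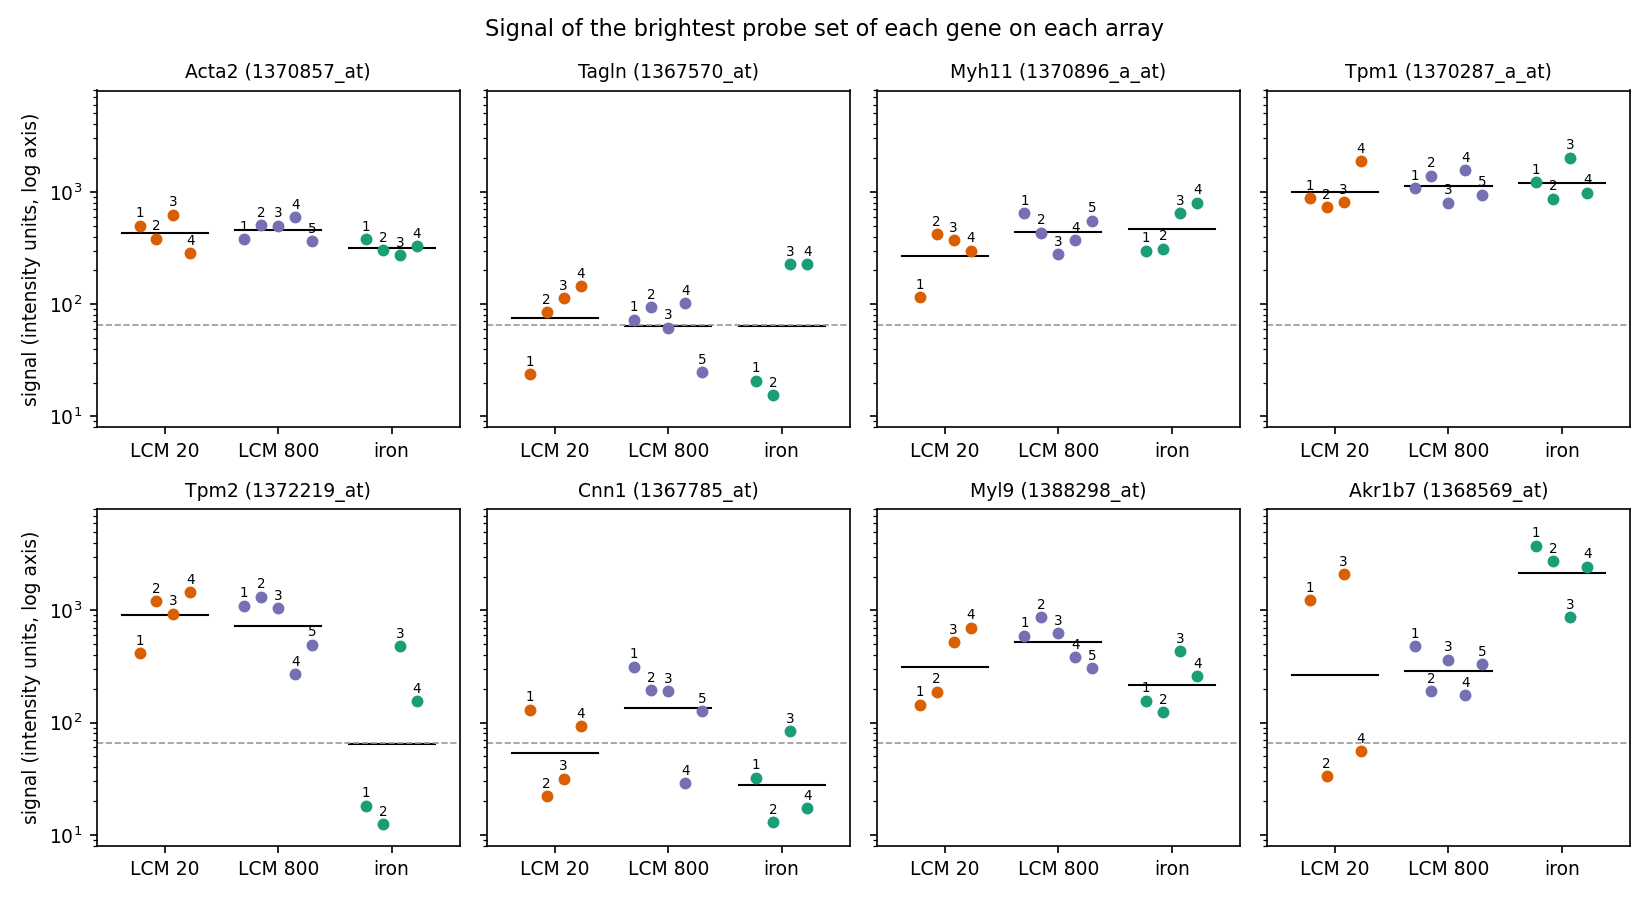
Signal in intensity units (log axis) of the brightest probe set of each of the 8 genes on each array, grouped as LCM 20, LCM 800 and iron from left to right; the number at a point is the replicate, the black bar the geometric mean and the dashed line the pseudocount of 65.29. Akr1b7 is highest on 3 of the 4 iron arrays, Tpm2 is lowest on iron replicates 1 and 2, and the Acta2 points of the 3 groups overlap.

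Acta2 encodes smooth muscle α-actin, the actin of the contractile filament. Its signal was 499.7, 383, 628 and 286 in LCM 20 replicates 1 to 4, against 379, 502, 501, 593 and 366 in LCM 800 replicates 1 to 5 and 381, 302, 271 and 329.7 in iron replicates 1 to 4. The groups overlapped, and no array stood far from the rest. The change against iron was 0.37 ± 0.23 in LCM 20 (SE, n = 4 and 4; adjusted p = 0.186, limma) and 0.45 ± 0.21 in LCM 800 (n = 5 and 4; adjusted p = 0.0862, limma), with a 95% interval in LCM 800 from -0.00035 to 0.91. With array weights, which give arrays that lie far from their group less influence, the LCM 800 change was 0.39 with an adjusted p of 0.0446 (limma).

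The stretch before the start of Acta2 is shown because it holds letters close to the CArG box, the motif known for serum response factor, through which myocardin drives contractile genes, and those of Tpm2 and Akr1b7 are shown as the members that moved furthest in each direction. Promoters came from RefSeq (build GRCr8), where 5 of the 8 genes had an entry, Acta2, Tpm1, Tpm2, Cnn1 and Akr1b7, while Tagln, Myh11 and Myl9 are named only. Each line gives the 150 bases before the start, 5′ to 3′ on the strand of the gene, with CArG-like boxes in capitals. The Acta2 stretch is chr1:241172504-241172653 (minus strand), that of Tpm2 is chr5:62575727-62575876 (minus strand) and that of Akr1b7 is chr4:64043820-64043969 (plus strand).
Acta2: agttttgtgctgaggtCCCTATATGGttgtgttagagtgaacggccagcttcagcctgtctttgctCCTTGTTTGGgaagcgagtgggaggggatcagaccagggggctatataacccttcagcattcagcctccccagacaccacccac
Tpm2: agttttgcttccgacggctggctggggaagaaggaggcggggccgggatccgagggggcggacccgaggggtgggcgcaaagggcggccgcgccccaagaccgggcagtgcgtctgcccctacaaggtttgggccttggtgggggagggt
Akr1b7: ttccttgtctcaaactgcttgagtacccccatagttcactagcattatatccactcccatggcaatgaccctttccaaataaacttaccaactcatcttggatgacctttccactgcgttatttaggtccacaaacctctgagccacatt
A CArG box is CC, then 6 letters A or T, then GG, and a CArG-like box has 1 C or G within those 6; it was searched on both strands. In the 250 bases before the start, Acta2 held 2 CArG-like boxes, CCCTATATGG from -134 to -125 and CCTTGTTTGG from -84 to -75, counted from the base before the start, and the other 4 promoters held none. A CArG-like box stood in 6.84% of 33469 rat promoters of this length and an exact CArG box in 1.5%, and none of the 5 held an exact box. The letters TATAAA (12.9% of promoters), CACGTG (5.59%) and the cyclic AMP response element TGACGTCA (1.59%) were also in none of the 5. These letters say nothing of whether a factor binds there.

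Tagln encodes transgelin, also called SM22, an actin-binding protein of smooth muscle. Its signal was 23.9, 85.0, 113 and 145 in LCM 20, against 72.8, 94.4, 61.8, 103 and 24.7 in LCM 800 and 20.8, 15.4, 227 and 228 in iron. Within iron, replicates 3 and 4 lay above every LCM array and replicates 1 and 2 below every LCM array, so the LCM ranges lay inside that of iron. Without the filter the changes against iron were -0.06 in LCM 20 (adjusted p = 0.922, limma) and -0.23 in LCM 800 (adjusted p = 0.654, limma).

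Cnn1 encodes calponin 1, which binds actin and restrains myosin in differentiated smooth muscle. Its signal was 130.0, 21.99, 31.7 and 92.5 in LCM 20, against 316, 195, 189.8, 28.7 and 126 in LCM 800 and 32.3, 12.9, 83.8 and 17.3 in iron. All LCM 800 arrays but replicate 4 lay above all iron arrays, while LCM 20 and iron overlapped. Without the filter the change against iron was 0.37 in LCM 20 (adjusted p = 0.466, limma) and 1.13 in LCM 800 (adjusted p = 0.0189, limma). Cnn1 did not pass the filter, so the LCM 800 call exists in that setting only.

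Myh11 encodes the smooth muscle myosin heavy chain, the motor that is most restricted to smooth muscle. Its signal was 115, 417, 369.8 and 298 in LCM 20, against 644, 431, 278, 373 and 555 in LCM 800 and 299.8, 311, 645 and 803 in iron. The groups overlapped, with iron replicates 3 and 4 at the top and LCM 20 replicate 1 at the bottom. The change against iron was -0.66 ± 0.35 in LCM 20 (SE, n = 4 and 4; adjusted p = 0.133, limma) and -0.10 ± 0.33 in LCM 800 (n = 5 and 4; adjusted p = 0.821, limma), and the LCM 800 value turned to 0.04 without iron replicate 3.

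Myl9 encodes the regulatory light chain of smooth muscle myosin, whose phosphorylation starts contraction. Its signal was 145, 188, 519 and 701 in LCM 20, against 595, 865, 628, 383 and 303 in LCM 800 and 157, 124, 436 and 258 in iron. LCM 800 replicates 1 to 3 lay above every iron array, replicates 4 and 5 lay within the iron range, and LCM 20 ran across it. The change against iron was 0.45 ± 0.41 in LCM 20 (SE, n = 4 and 4; adjusted p = 0.388, limma) and 1.03 ± 0.39 in LCM 800 (n = 5 and 4; adjusted p = 0.0373, limma). The LCM 800 call ended without iron replicate 1, 2 or 4 (changes of 0.91, 0.83 and 1.09), without LCM 800 replicate 1, 2 or 3 (0.99, 0.87 and 0.97), and without those 3 LCM 800 arrays together (0.50, adjusted p = 0.416). It also ended without the filter on low values (1.03, adjusted p = 0.0503) and with equal array medians (0.93, adjusted p = 0.0638), under which the median change of all tested probe sets in LCM 800 was 0.12, beside 0.22 without that step. Without iron replicate 3 the LCM 800 change was 1.30 (adjusted p = 0.0159, limma).

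Tpm1 encodes α-tropomyosin, the coiled coil along the actin filament, whose transcript is spliced into many forms for smooth muscle, striated muscle and other cells. Its 6 probe sets did not move together. At 1368724_a_at the signal was 494, 675, 839 and 913 in LCM 20, against 974.8, 1151, 957, 1299 and 1079 in LCM 800 and 296, 139, 308 and 227 in iron. None of the 3 groups overlapped: every LCM 800 array lay above every LCM 20 array, and those lay above every iron array. The change against iron was 1.38 ± 0.24 in LCM 20 (SE, n = 4 and 4; adjusted p = 0.000255, limma) and 1.94 ± 0.22 in LCM 800 (n = 5 and 4; adjusted p = 6.45e-06, limma). Between LCM 20 and LCM 800 it was -0.56 ± 0.22, with an adjusted p of 0.218 (limma) and an unadjusted 95% interval from -1.04 to -0.09. Both calls against iron held in all 25 alternatives in which this probe set was tested, and without iron replicate 3 the changes were 1.48 in LCM 20 and 2.05 in LCM 800. It was 2.06 in LCM 800 without replicates 1 to 3 of that group and 1.86 without replicates 4 and 5.

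The Tpm1 probe set 1370287_a_at, the brightest of the gene, gave 874, 731, 804 and 1874 in LCM 20, against 1081, 1394, 799, 1556 and 941 in LCM 800 and 1225, 869, 2013 and 985 in iron. The groups overlapped fully, with LCM 20 replicate 4 and iron replicate 3 at the top. Its change against iron was -0.27 ± 0.32 in LCM 20 (adjusted p = 0.516, limma) and -0.10 ± 0.30 in LCM 800 (adjusted p = 0.794, limma), and the LCM 800 value was 0.13 without iron replicate 3. Probe set 1370288_a_at, which did not pass the filter, gave 18.5, 13.3, 11.2 and 90.6 in LCM 20, against 37.9, 78.8, 61.7, 11.6 and 9.01 in LCM 800 and 350.4, 359.9, 503 and 201 in iron. All LCM arrays lay below all iron arrays, and without the filter the change was -2.10 in LCM 20 (adjusted p = 6.97e-05, limma) and -1.99 in LCM 800 (adjusted p = 5.47e-05, limma). The other 3 probe sets were dim: 1370513_at ran from 6.76 to 82.2 over the 13 arrays, 1371240_at from 7.57 to 41.8 and 1371241_x_at from 9.54 to 114. At 1371240_at the LCM arrays, 17.7 to 35.6 in LCM 20 and 16.1 to 41.8 in LCM 800, lay above the iron arrays, 7.57 to 12.8, all under the pseudocount. Without the filter its change was 0.22 in LCM 20 (adjusted p = 0.118, limma) and 0.28 in LCM 800 (adjusted p = 0.0376, limma). The files do not say which transcript forms each probe set reads, and no difference between probe sets was tested.

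**Figure D2:**
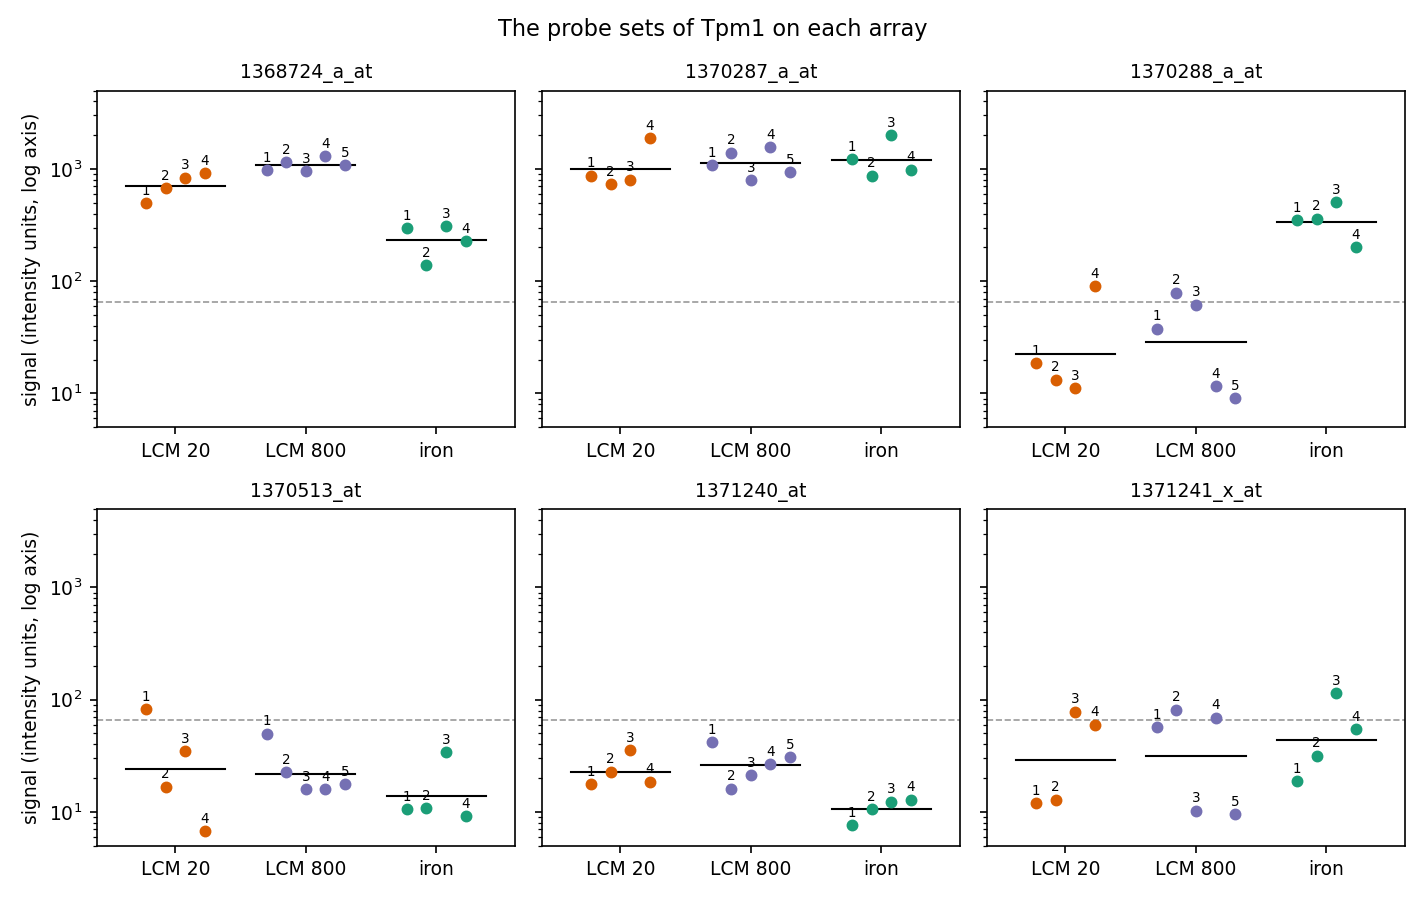
Signal in intensity units (log axis) of the 6 Tpm1 probe sets on each array, with LCM 20, LCM 800 and iron from left to right; numbers are replicates, black bars geometric means and the dashed line the pseudocount of 65.29. LCM arrays lie above iron at 1368724_a_at, overlap it at 1370287_a_at and lie below it at 1370288_a_at.

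Tpm2 encodes β-tropomyosin, the partner of α-tropomyosin in muscle filaments. Its signal was 414, 1199.7, 935 and 1452 in LCM 20, against 1103, 1325, 1043, 268 and 494 in LCM 800 and 18.2, 12.5, 482 and 155 in iron. Iron replicates 1 and 2 were far below the pseudocount, and iron replicate 3 lay above 1 array of each LCM group, so the ranges overlapped. The change against iron was 2.55 ± 0.58 in LCM 20 (SE, n = 4 and 4; adjusted p = 0.00223, limma) and 2.26 ± 0.55 in LCM 800 (n = 5 and 4; adjusted p = 0.00289, limma). The size depended on the arrays used: without iron replicate 3 it was 3.12 in LCM 20 and 2.83 in LCM 800, and with array weights 3.23 and 3.35. Without LCM 800 replicates 1 to 3 the LCM 800 change was 1.37 with an adjusted p of 0.104 (limma), and without replicates 4 and 5 it was 2.86. LCM 20 and LCM 800 differed by 0.29 ± 0.55 (adjusted p = 0.817, limma), with a 95% interval from -0.88 to 1.45.

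**Figure D3:**
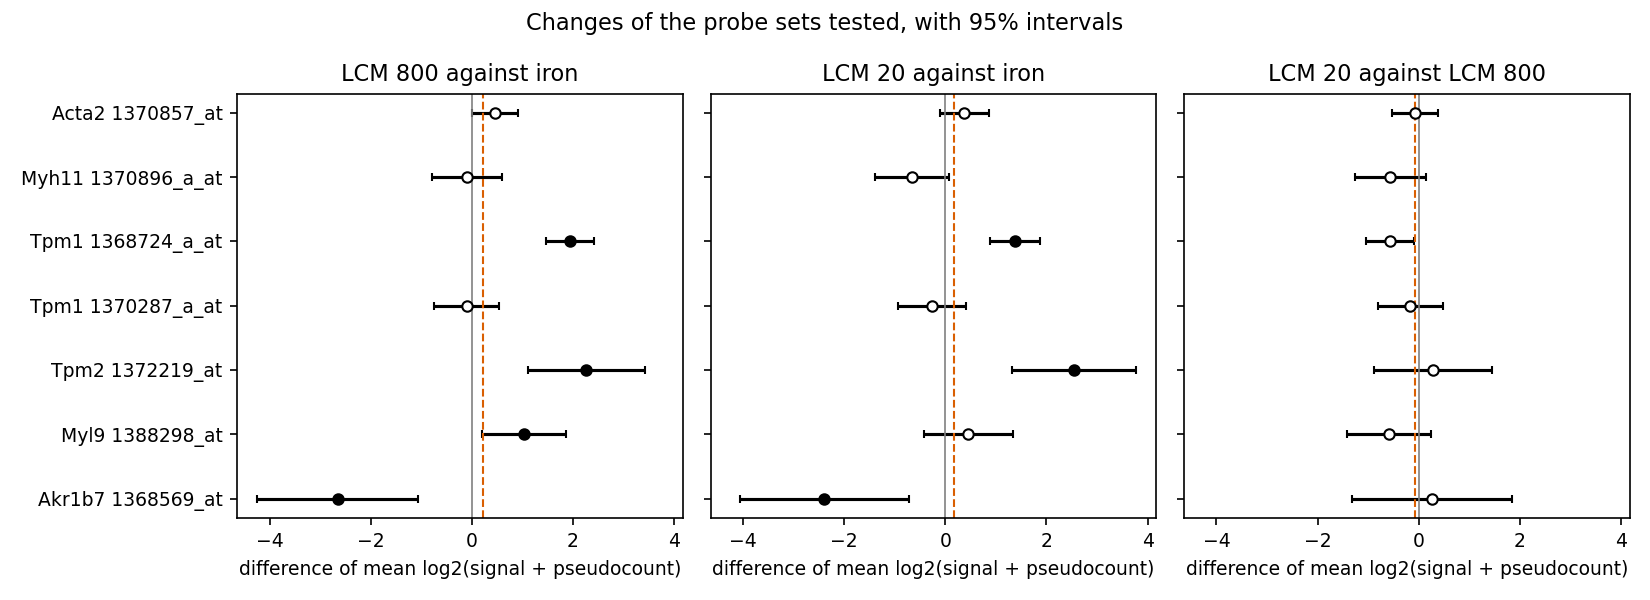
Change of each of the 7 tested probe sets as a difference of mean log2(signal + 65.29), with 95% intervals from limma that are not adjusted for the number tested; filled points passed the test, open points did not, and the dashed line is the median change of all tested probe sets. In both comparisons with iron Tpm1 1368724_a_at and Tpm2 lie right of that line and Akr1b7 left of it, and in LCM 20 against LCM 800 all points are open.

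Akr1b7 encodes an aldo-keto reductase that in the mouse marks renin-producing juxtaglomerular cells; members of its family reduce aldehydes and steroids. Its signal was 1232, 33.2, 2094 and 55.6 in LCM 20, against 479, 192, 363, 176 and 333 in LCM 800 and 3766, 2761, 869 and 2444 in iron. All LCM 800 arrays lay below all iron arrays. LCM 20 split, with replicates 1 and 3 within the iron range and replicates 2 and 4 below every other array, a spread of 63.2-fold between its highest and lowest array. The change against iron was -2.39 ± 0.79 in LCM 20 (SE, n = 4 and 4; adjusted p = 0.0217, limma) and -2.65 ± 0.75 in LCM 800 (n = 5 and 4; adjusted p = 0.00774, limma). The LCM 20 call ended without LCM 20 replicate 2 (-1.69, adjusted p = 0.0826) or replicate 4 (-1.79, adjusted p = 0.0784) and without iron replicate 1 (-2.14, adjusted p = 0.0620) or 2 (-2.28, adjusted p = 0.0513), while without LCM 20 replicate 3 it was -3.17 (adjusted p = 0.00299). The LCM 800 call held in all 26 alternatives. Without iron replicate 3 the changes were -2.81 in LCM 20 and -3.08 in LCM 800. In LCM 800 the change was -2.86 without replicates 1 to 3 and -2.52 without replicates 4 and 5. LCM 20 and LCM 800 differed by 0.26 ± 0.75 (adjusted p = 0.881, limma), with a 95% interval from -1.32 to 1.85.

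Markers of the proximal tubule, the segment that reclaims most of the filtrate, moved the same way as Akr1b7. Of 13 marker genes 12 were lower in LCM 20 and limma called 0 higher (also 0 at an unadjusted p under 0.05), and 12 were lower in LCM 800 and 1, Pck1, higher. Among all genes tested by brightest probe set, 18.5% were lower and 27% higher in LCM 20, and 19.8% and 32.3% in LCM 800. The summed signal of the 13 markers was 22548 to 52876 on LCM 20 arrays, 27021 to 55532 on LCM 800 arrays and 74267 to 136612 on iron arrays. Pck1 made a large part of the LCM sums but a small part of the iron sums. It gave 13370.5 to 26060 in LCM 20, 14194 to 33771 in LCM 800 and 8513 to 12934 in iron. Iron replicate 3, the iron array with the lowest Akr1b7, also had the lowest sum of its group. In LCM 20 replicates 1 to 4 the sums were 52876, 22548, 31244 and 28154. Replicates 2 and 4, which were low in Akr1b7, thus had the lowest sums of LCM 20. LCM 20 replicate 3 had a lower sum than iron replicate 3 but a higher Akr1b7 signal. The part of tubular RNA in the Akr1b7 change was not tested.

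**Figure D4:**
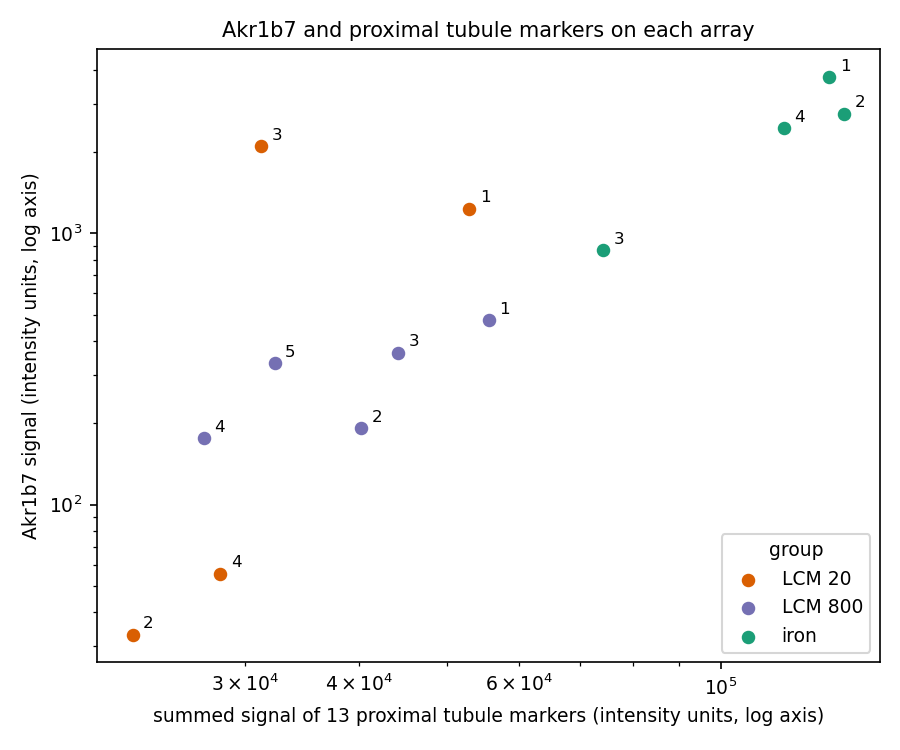
Akr1b7 signal against the summed signal of 13 proximal tubule marker genes on each array, both in intensity units on log axes; colours are the groups LCM 20, LCM 800 and iron, and numbers are replicates. The 4 iron arrays have the highest sums (74267 to 136612), and LCM 20 replicates 1 and 3 lie above the LCM 800 arrays in Akr1b7. Pck1 makes a large part of the LCM sums.

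Other aldo-keto reductase genes were counted from a list of 10, of which 6 were tested. In LCM 20, limma called 0 higher and 3 lower (1 was higher and 4 lower at an unadjusted p under 0.05), and in LCM 800, 1 was higher and 4 lower, with median changes of -0.94 and -0.97. By brightest probe set, 27% of all genes tested were higher and 18.5% lower in LCM 20, and 32.3% and 19.8% in LCM 800. Akr7a3, which reduces aflatoxin aldehydes, averaged 324 in LCM 20, 405 in LCM 800 and 2812 in iron, with changes of -2.78 ± 0.37 (adjusted p = 2.83e-05) in LCM 20 and -2.50 ± 0.35 (adjusted p = 3.31e-05) in LCM 800. Akr7a2 fell by 2.37 in LCM 20 and fell by 2.39 in LCM 800 on the log2 scale, and Akr1c1 fell by 1.29 in LCM 20 and fell by 1.32 in LCM 800. Akr1c3 was the gene that was higher in LCM 800 (0.95 ± 0.27, adjusted p = 0.00764). Akr1b1, the closest relative of Akr1b7 among those tested and a reductase of glucose, changed by 0.31 in LCM 20 (adjusted p = 0.515) and -0.05 in LCM 800 (adjusted p = 0.913).

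The renin-cell and angiotensin list of 30 genes had 19 tested. In LCM 20, 5 were higher and 4 lower, and in LCM 800, 4 were higher and 4 lower, with median changes of 0.01 and 0.14, both under those of all tested probe sets. The shares of all genes tested by brightest probe set were 27% higher and 18.5% lower in LCM 20, and 32.3% and 19.8% in LCM 800. Of the gap junction genes of the list, Gja4 and the brightest probe set of Gja5 were higher in both LCM groups. Gjc1, also listed, had no probe set that named it alone. Gja5, connexin 40, through which renin cells are coupled to the endothelium, gave 3943, 6322, 7926 and 5777 in LCM 20, against 3091, 3620.5, 3745, 7193 and 5546 in LCM 800 and 505.5, 385, 2479 and 619.9 in iron. Every LCM array lay above every iron array, with iron replicate 3 nearest to them. Its change was 2.85 ± 0.44 in LCM 20 (adjusted p = 0.000118, limma) and 2.45 ± 0.42 in LCM 800 (adjusted p = 0.000197, limma), but its other tested probe set changed by 0.07 (adjusted p = 0.889) and -0.06 (adjusted p = 0.900). Gja4, connexin 37, gave 839 to 1177 in LCM 20, 849 to 1711 in LCM 800 and 213 to 906 in iron, with changes of 1.40 (adjusted p = 0.00323) in LCM 20 and 1.54 (adjusted p = 0.000892) in LCM 800. Both connexins are also made by arterial endothelium. Of 14 tested endothelial markers, a list that holds both, 7 were higher and 2 lower in LCM 20, and 6 were higher and 2 lower in LCM 800. The summed signal of the list was 31450 to 42135 in LCM 20, 26004 to 33322 in LCM 800 and 10572 to 33352 in iron, and its part in the connexin changes was not tested.

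The angiotensin II receptors did not give 1 answer. Agtr1b gave 3517, 5782, 2475 and 2063 in LCM 20, against 439.9, 558, 485, 1996 and 1729.8 in LCM 800 and 273, 136, 2216 and 479.97 in iron. LCM 800 replicates 4 and 5 and iron replicate 3 lay apart from their groups, towards LCM 20. Its change was 2.596 ± 0.63 in LCM 20 (adjusted p = 0.00373, limma; 3.29 without iron replicate 3) and 0.76 ± 0.60 in LCM 800 (adjusted p = 0.297, limma). For Agtr1a, the main vascular receptor, probe set 1384240_at changed by 1.66 ± 0.41 in LCM 20 (adjusted p = 0.00386, limma) and 0.94 ± 0.39 in LCM 800 (adjusted p = 0.0511, limma). Its other probe set, 1369291_at, which did not pass the filter, gave 54.7, 30.2, 26.5 and 19.1 in LCM 20, against 28.7, 27.9, 21.96, 94.7 and 31.8 in LCM 800 and 358, 329, 913 and 352 in iron, so there all LCM arrays lay below all iron arrays.

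**Figure D5:**
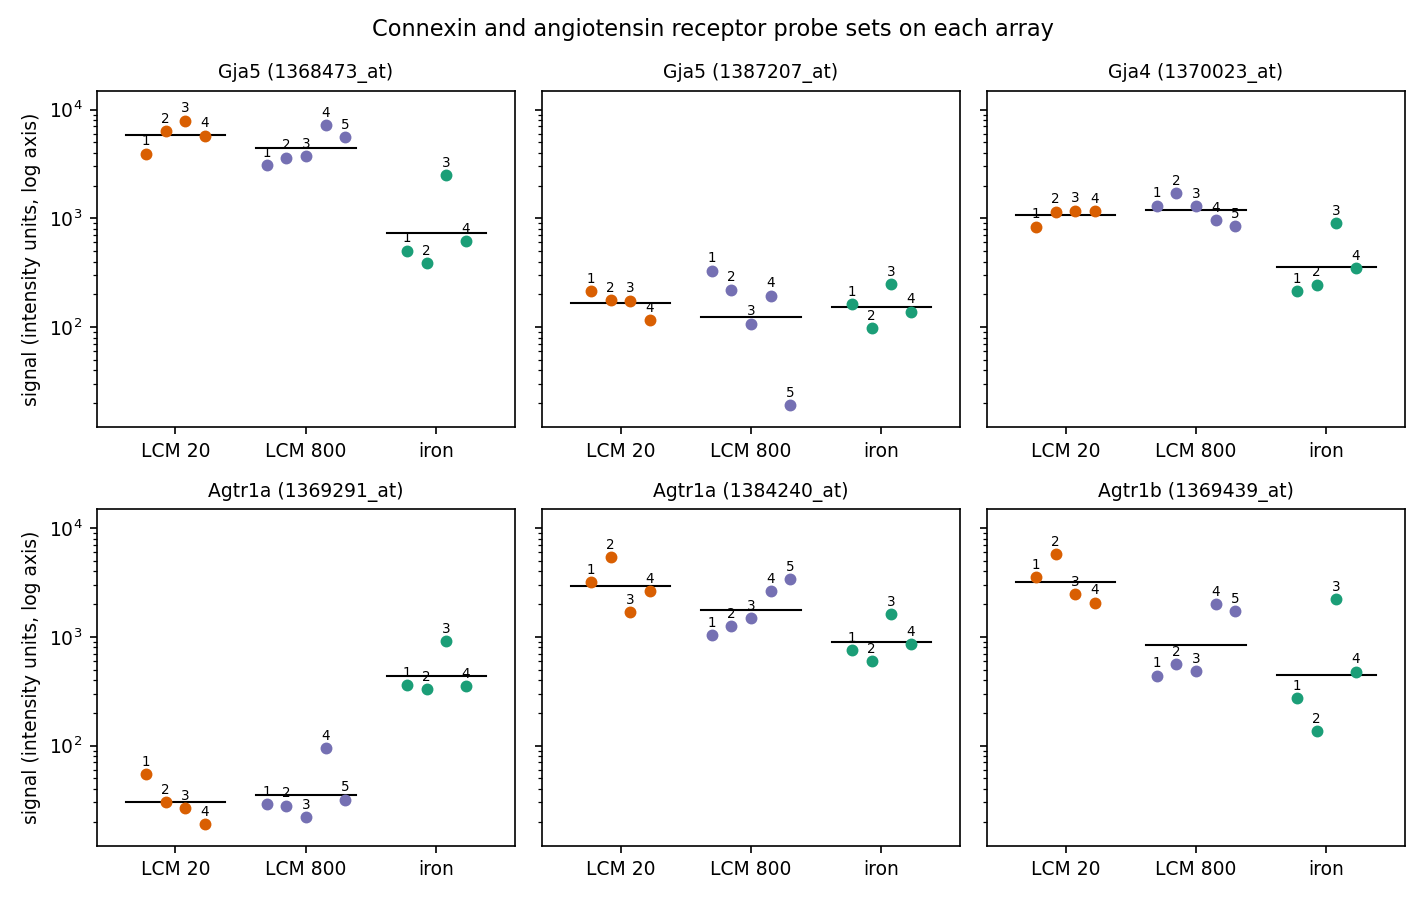
Signal in intensity units (log axis) of the connexin and angiotensin receptor probe sets (6 panels) on each array, with LCM 20, LCM 800 and iron from left to right; numbers are replicates and black bars geometric means. LCM arrays lie above iron for Gja5 probe set 1368473_at, overlap it for Gja5 probe set 1387207_at and lie below it for Agtr1a probe set 1369291_at, and iron replicate 3 is the highest iron array in all 6 panels.

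Signalling genes of renin cells went both ways. Adcy5, an adenylyl cyclase that makes cyclic AMP, changed by 1.10 ± 0.37 in LCM 20 (adjusted p = 0.0246) and 1.55 ± 0.35 in LCM 800 (adjusted p = 0.00191). Without LCM 800 replicates 1 to 3 the LCM 800 change was 1.04 (adjusted p = 0.0648). Gnas, the stimulatory G protein that activates adenylyl cyclase, averaged 1066 in LCM 20, 800 in LCM 800 and 4974 in iron at its main probe set, with changes of -2.17 and -2.50 (adjusted p = 4.86e-05 and 6.54e-06), while its other tested probe set changed by 0.06 and 0.31 and did not pass. Hsd11b2, which inactivates glucocorticoids in the collecting duct, fell by 2.05 in LCM 20 (adjusted p = 0.000135) and fell by 1.17 in LCM 800 (adjusted p = 0.00502). The summed signal of 10 loop, macula densa and distal tubule markers was 5002 to 12575 in LCM 20, 12906 to 20337 in LCM 800 and 19323 to 40842 in iron. Of 9 tested, limma called 0 higher and 6 lower in LCM 20, and 2 higher and 5 lower in LCM 800. Aqp2 made a large part of the LCM 800 sum. It gave 1585 to 5140 in LCM 20, 5950 to 13925 in LCM 800 and 1765 to 8440 in iron. The part of these segments in the Hsd11b2 change was not tested. Creb1, the transcription factor of the cyclic AMP pathway, fell by 1.47 in LCM 20 (adjusted p = 0.00117). Its signal at that probe set was 20.5 to 142 in LCM 20, 62.0 to 205 in LCM 800 and 199.7 to 429 in iron. At its other probe sets, which did not pass the filter, both LCM groups overlapped iron. Enpep, the aminopeptidase that cuts angiotensin II, changed by 0.01 in LCM 20 (adjusted p = 0.993) and -1.39 in LCM 800 (adjusted p = 0.0176), and by -0.13 (adjusted p = 0.747) in LCM 800 without replicates 1 to 3. Its other tested probe set changed by -0.55 in LCM 20 (adjusted p = 0.0619) and -0.65 in LCM 800 (adjusted p = 0.02).

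Of 45 other contractile and regulatory genes of smooth muscle 34 were tested. In LCM 20, 12 were higher and 6 lower, and in LCM 800 also 12 were higher and 6 lower, with median changes of 0.28 and 0.52. Of all genes tested, each by its brightest probe set, 27% were higher and 18.5% lower in LCM 20. In LCM 800 these shares were 32.3% and 19.8%, so the counts of the list are close to the background. Several genes of the list that moved furthest are made in most cell types. Cnn2, a calponin of non-muscle cells, rose by 1.23 ± 0.33 in LCM 20 (adjusted p = 0.00715, limma) and 2.18 ± 0.32 in LCM 800 (adjusted p = 4.69e-05, limma). Myl12a, a non-muscle regulatory light chain, rose by 1.46 ± 0.24 in LCM 20 (adjusted p = 0.000162, limma) and 1.70 ± 0.22 in LCM 800 (adjusted p = 2.05e-05, limma). Actg1, cytoplasmic γ-actin, averaged 1473 in LCM 20, 1396 in LCM 800 and 7752 in iron and fell by 2.34 in LCM 20 (adjusted p = 4.82e-06) and fell by 2.43 in LCM 800 (adjusted p = 1.58e-06). Cnn3, an acidic calponin, changed by -1.35 in LCM 20 (adjusted p = 0.0426, limma) and -2.28 in LCM 800 (adjusted p = 0.00121, limma). Without LCM 800 replicates 1 to 3 the Cnn3 change in LCM 800 was -1.30. Myh9, a non-muscle myosin heavy chain, changed by -2.42 in LCM 20 (adjusted p = 0.000111, limma) and -0.97 in LCM 800 (adjusted p = 0.0306, limma). Itga1, an integrin that binds collagen, fell by 1.66 in LCM 20 and fell by 1.48 in LCM 800 (adjusted p = 0.000151 and 0.000191). Actn1, α-actinin, rose at 1 probe set by 1.30 in LCM 20 (adjusted p = 0.000567, limma) and 1.70 in LCM 800 (adjusted p = 2.92e-05, limma). Its other probe set changed by -0.32 in LCM 20 (adjusted p = 0.474, limma) and -0.67 in LCM 800 (adjusted p = 0.108, limma).

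The soluble guanylyl cyclase, which relaxes smooth muscle when nitric oxide binds it, was higher in LCM 20 at 1 probe set of each subunit, and 1 of the 2 subunits was also higher in LCM 800. Its subunit Gucy1a1 gave 1619.6 to 4147 in LCM 20, 768.6 to 2554 in LCM 800 and 255 to 996 in iron, with changes of 2.34 ± 0.44 in LCM 20 (adjusted p = 0.000581) and 1.496 ± 0.42 in LCM 800 (adjusted p = 0.00762). Gucy1b1 gave 249.9 to 2212 in LCM 20, 72.7 to 702 in LCM 800 and 28.5 to 333 in iron, with changes of 2.29 ± 0.61 in LCM 20 (adjusted p = 0.00655) and 1.07 ± 0.58 in LCM 800 (adjusted p = 0.131). Between LCM 20 and LCM 800 they differed by 0.84 ± 0.42 for Gucy1a1 (adjusted p = 0.309) and 1.22 ± 0.58 for Gucy1b1 (adjusted p = 0.286). The other tested probe set of Gucy1a1 changed by -0.25 in LCM 20 (adjusted p = 0.592) and 0.23 in LCM 800 (adjusted p = 0.593), and that of Gucy1b1 by 0.67 (adjusted p = 0.1) and 0.19 (adjusted p = 0.616). Myh10, a non-muscle myosin heavy chain, changed by 1.51 ± 0.43 in LCM 20 (adjusted p = 0.0104, limma) and 0.86 ± 0.41 in LCM 800 (adjusted p = 0.0918, limma). Between LCM 20 and LCM 800 limma called 0 of the 34 genes here, 0 of the 19 of the renin-cell list and 0 of the 6 aldo-keto reductases, where 7, 4 and 0 had an unadjusted p under 0.05.

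Cells other than arteriolar smooth muscle carry contractile genes. Beside the counts that follow, 27% of all genes tested by brightest probe set were higher and 18.5% lower in LCM 20. In LCM 800 these shares were 32.3% and 19.8%. Of 16 pericyte and mesangial markers 4 were higher and 4 lower in LCM 20, and 7 were higher and 4 lower in LCM 800, with median changes of 0.12 and 0.55. Their summed signal was 7714 to 9200 in LCM 20, 8553 to 12029 in LCM 800 and 15995 to 17254 in iron. Of that sum Anpep, which is also a brush border enzyme of the proximal tubule, Igfbp5 and Nt5e made up 13.7% to 25.3% in LCM 20, 16.1% to 24.7% in LCM 800 and 40.2% to 80.0% in iron. The other 13 genes summed to 6305 to 7854 in LCM 20, 6782 to 9972 in LCM 800 and 3334 to 10312 in iron, so without those 3, which were singled out after their values were seen, the groups overlapped. Of 6 tested fibroblast markers 1 was higher and 1 lower in LCM 20, and 3 were higher and 1 lower in LCM 800, with sums of 2220 to 3482, 2569 to 4539 and 2162 to 4239 in LCM 20, LCM 800 and iron. Of 13 striated muscle genes on the array 3 passed the filter, Ckm and Tnnt2 higher in both LCM groups and Myh1 lower in LCM 20; the 13 genes summed to 2316 to 8449 in LCM 20, 6742 to 10643 in LCM 800 and 4940 to 9212 in iron. Myh1 alone made up 57.3% to 82.1% of the sum in LCM 20, 80.7% to 89.6% in LCM 800 and 91.0% to 93.7% in iron, and the other 12 genes summed to 648 to 1637 in LCM 20, 1092 to 1523 in LCM 800 and 447 to 744 in iron. Of those 12 genes only Ckm and Tnnt2 passed the filter, so this sum adds many dim signals. Skeletal α-actin, Acta1, lay between 8.2 and 49.4 on all 13 arrays, under the pseudocount. Myh7 lay between 4.1 and 110, Myh4 between 4.5 and 122 and Mb between 17 and 148. The part of these cells in the changes of the members was not tested.

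The members varied from array to array in different ways within groups. After each group mean was taken out, the 21 pairs among the 7 contractile genes, each by its brightest probe set, had a median Pearson's r of 0.346 over the 13 arrays, from -0.423 to 0.781. The highest was that of Tpm2 with Myl9 (0.781), followed by Tagln with Myl9 (0.736) and with Tpm2 (0.734). Acta2 was negative with each of the other 6, from -0.423 to -0.121, and positive with Akr1b7 (0.638). The value with Akr1b7 rests largely on LCM 20, where the SD of Akr1b7 in log2 was 2.30, against 0.50 in LCM 800 and 0.88 in iron. Within LCM 800, replicate 4 had the highest Acta2 signal (593) and the lowest Akr1b7 signal (176). All these correlations are descriptions over arrays that share an isolation and a scaling within each group. Iron replicate 3 was the highest iron array in 8 of the 13 member probe sets, against 32.0% of all probe sets, and LCM 800 replicates 1 to 3 were all above replicates 4 and 5 in 4 of the 13, against 28.0%. Of the 13 probe sets 6 read Tpm1, so such counts weigh that gene more than the others, and most of the 8 were of Tpm1.

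By the same measure over 8080 or 8081 genes, the genes most like Acta2 were Igsf1 (r = 0.906), Gpr26 (0.893), Kcnip4 (0.892), Hsf2 (0.880) and Mag (0.873). Those most like Tagln were Loxl1 (0.887), Marveld1 (0.847), Tmem160 (0.830), Atp2a3 (0.827) and S100a4 (0.825). Those most like Akr1b7 were Serpina10 (0.972), Mtmr7 (0.962), Tro (0.957), Slc8a2 (0.953) and Sdcbp2 (0.945). Over the 13 arrays with group differences kept, Serpina10 stayed at 0.949 and Tro at 0.891, while Mtmr7 (-0.064), Slc8a2 (-0.308) and Sdcbp2 (-0.183) did not. Akr1b7 varied most within LCM 20, so its r values weigh mainly the split of replicates 1 and 3 from 2 and 4 there. Each r named is among the highest of 8080 or 8081 and is high partly by that choice. None of the other member genes was among these 15 genes.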

How the data were processed

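The deposited values are array signals in intensity units on a linear scale, made by the authors with MAS5 per the submitters' processing notes; no detection calls or scanner files were used here. The mean of each array after 2% of values at each end were left out was 500.1, so no further normalization was applied. Signals were taken as log2(signal + 65.29), and 57 control probe sets and the lowest 30% by mean log2 over all arrays were left out, which left 11106. All 13 arrays entered 1 linear model without covariates (limma 3.58.1, R 4.3.3), whose variances were moderated along the mean signal; tests were two-sided, with Benjamini-Hochberg adjustment over all probe sets tested; the script was tested on simulated data. P-values measure the spread between these arrays, which the titles call biological replicates. Probe sets were named from the platform annotation (12783 with 1 symbol, 312 with several, 2771 with none); lists count a gene by its brightest probe set. From each list of related genes the 3 largest rises and falls past the test are named, and other genes were named after their values were seen. Genes of like pattern are the 5 with the highest Pearson's r after group means were subtracted. The members and lists were chosen with earlier results of these data known. Same-numbered arrays correlated between groups at -0.244 to 0.233 after group means were subtracted, so the numbers were not treated as pairs. Alternatives were other scalings, pseudocounts and filters, moderation without the trend, weights per array, a block for the replicate number, fits of 2 groups only, 1 probe set per gene, and arrays left out.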

Additional observations from a re-analysis of the deposited data

Results flagged for a closer look

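Within a group, 3 of 39 combinations of a member probe set and a group had 1 array that lay apart from the others by Dixon's test; chance flags about 1 in 20. Tpm1 probe set 1370288_a_at had a signal of 90.6 in LCM 20 replicate 4, where the other LCM 20 arrays had 11.2 to 18.5. Tpm1 probe set 1370513_at had 49.9 in LCM 800 replicate 1, where the other LCM 800 arrays had 15.9 to 22.6, and 34.1 in iron replicate 3, where the other iron arrays had 9.2 to 10.8. Both probe sets failed the filter on low values.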

How the results depend on the processing

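The 7 tested member probe sets gave 21 changes, each recomputed under up to 26 alternatives. Of 540 values 508 kept their direction and their side of the threshold, 14 lost the call, 1 gained it and 17 changed sign; none of the 17 was called. For LCM 20 against iron, the probe sets higher numbered 2339 to 2992 and those lower 1804 to 2202 over the fits without 1 array (members 2 and 0 to 1), and 1300 were lower with the lowest 60% left out. Members lower were 2 without the filter, and members higher 1 with the brightest probe set per gene. For LCM 800 against iron, leaving out 1 array gave 2994 to 3592 higher and 1942 to 2256 lower (members 2 to 3 and 1), the stricter filter 2089 and 1415, no filter 2 members lower, and leaving out LCM 800 replicates 1 to 3 together 1 member higher. For LCM 20 against LCM 800, leaving out 1 array gave 0 to 245 higher and 0 to 257 lower, with 0 members in every such fit; array weights gave 448 and 411, only 2 groups in the fit 0 and 0, leaving out LCM 800 replicates 1 to 3 together 23 and 0, and leaving out replicates 4 and 5 together 1264 and 1317. There the lower count was 4 without a pseudocount, 3 without the filter, 4 with the stricter filter and 5 by brightest probe set. Stricter filters and single probe sets test fewer probe sets; for the others the cause was not tested. The replicate block gave 2755 higher and 2119 lower in LCM 20 against iron, 3304 and 2148 in LCM 800 against iron, and 0 and 0 in LCM 20 against LCM 800; it changed no member's call, and 1 of 4 same-numbered pairs correlated over 0.1 in each comparison. Signs turned for these uncalled values. In LCM 800 against iron, leaving out 1 array gave -0.28 to 0.13 for Myh11, which was 0.13 with array weights, and -0.25 to 0.13 for Tpm1 1370287_a_at, which was 0.0042 without LCM 800 replicates 1 to 3. In LCM 20 against LCM 800, leaving out 1 array gave -0.24 to 0.088 for Acta2, which was 0.0082 after quantile normalization and 0.018 with equal medians. It gave -0.52 to 0.97 for Akr1b7, which was -0.13 without a pseudocount, and -0.032 to 0.63 for Tpm2, which was -0.11 with array weights and -0.31 without LCM 800 replicates 4 and 5. Of 798 values for 31 named results of the lists 796 kept their call. Dim probe sets, groups of 4 or 5 arrays and the 2 kinds of LCM 800 array limit what the smaller changes can show.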

Other observations

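Serum response factor, Srf, the partner of myocardin in smooth muscle, was higher in both LCM groups. Its signal was 1221 to 1695.6 in LCM 20, 1109 to 1719.8 in LCM 800 and 484 to 892 in iron, with changes of 1.11 ± 0.23 in LCM 20 (adjusted p = 0.00109, limma) and 1.11 ± 0.22 in LCM 800 (adjusted p = 0.000576, limma). Mylk, the kinase that phosphorylates the regulatory light chain, changed by 1.13 ± 0.30 in LCM 20 (adjusted p = 0.00603, limma) and 1.05 ± 0.28 in LCM 800 (adjusted p = 0.00569, limma). Smtn, smoothelin of contractile smooth muscle, changed by -1.21 ± 0.45 in LCM 20 (adjusted p = 0.0383, limma) and -0.31 ± 0.43 in LCM 800 (adjusted p = 0.561, limma). Among pericyte and mesangial markers, Cspg4, the proteoglycan NG2, gave 313 to 388 in LCM 20, 239 to 567 in LCM 800 and 65.4 to 116 in iron, while Igfbp5 gave 688 to 1187 in LCM 20, 1063 to 1894 in LCM 800 and 3721 to 4877 in iron. These genes were named after their values were seen.

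Enpep had signals of 793, 947 and 1100.4 in LCM 800 replicates 1 to 3 and 4957 and 3669 in replicates 4 and 5, where LCM 20 gave 3049 to 6591 and iron 3833 to 5154. Of 11 tested podocyte markers 4 were higher and 3 lower in LCM 20, and 4 were higher and 5 lower in LCM 800. Of 7 tested leukocyte markers 3 were higher and 1 lower in LCM 20, and 4 were higher and 1 lower in LCM 800. For all genes tested by brightest probe set the shares were 27% higher and 18.5% lower in LCM 20, and 32.3% and 19.8% in LCM 800.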
